A study of Homo sapiens with 4 samples.

Results

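The 8 genes of the cytosolic chaperonin CCT, also called TRiC, were followed in cells labelled as KYSE-150, in total RNA and in RNA pelleted with polyribosomes. They are TCP1, CCT2, CCT3, CCT4, CCT5, CCT6A, CCT7 and CCT8, and were chosen by name. All 8 were found, each in a single row, among 17064 rows of values, and all 8 were among the 7379 genes whose average over the libraries reached 5 FPKM. FPKM are fragments scaled to the length of the transcript and to the number mapped in the library, so that levels can be set side by side between genes.

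CCT is a pair of stacked rings, each built from 1 copy of every one of these subunits in a fixed order. It takes in newly made proteins, above all actin and tubulin, and closes over them in a cycle driven by ATP. Because each position in the ring is filled by its own gene product, the complex needs its subunits in equal number.

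KYSE-150 is a cell line that was established from a squamous carcinoma of the esophagus. By the labels, the knockdown-labelled cells carried a stable short hairpin RNA against NSUN6, an enzyme that methylates cytosine in RNA. The control cells had normal NSUN6. All cells grew in DMEM with serum and were treated with cycloheximide, which halts elongating ribosomes, and polyribosomes were pelleted through sucrose from lysate of which a portion was kept as input. The groups were knockdown-labelled polyribosome RNA, knockdown-labelled input RNA, control polyribosome RNA and control input RNA, with 1 library in each. The differences thus lack any check by replicates, p-values were not computed, and the read depth is unknown. Genes at least 2-fold apart on the scale of log2(FPKM + 1) are counted as higher or lower. In bulk RNA, fewer cells of a kind and less RNA per cell cannot be told apart.

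The labels of the second pair of libraries carry a doubt that touches every result drawn from them. The table ends in another line of column names, which gives this pair as K30 cells with a hairpin against Mettl1 and puts input before polyribosome, opposite to the header. The header was followed because it matches the sample labels. Values with these 2 fractions exchanged are given for the subunits and for most results of their partner lists. NSUN6, the gene the hairpin targets, had 0.38 FPKM in knockdown-labelled against 10.13 FPKM in control polyribosomes, and 3.83 FPKM in knockdown-labelled against 8.85 FPKM in control input. Of the epithelial markers, KRT19 of simple epithelium was at 1973 and 1488 FPKM in the knockdown-labelled polyribosome and input libraries, against 1.02 and 0.07 FPKM in the control ones. It was the most extreme of 6 markers, which together summed to 7194 and 6342 FPKM in the knockdown-labelled libraries, against 4211 and 3137 FPKM in the control ones. KRT8 and KRT18 made up most of the control sums, and their log2 differences in input were only 0.37 and 0.12. MUC1 of the same list went the other way, with 3.53 FPKM in knockdown-labelled and 12.25 FPKM in control input. Of the squamous markers, KRT5 was at 0.70 and 0.45 FPKM in the knockdown-labelled polyribosome and input libraries, against 1162 and 906 FPKM in the control ones. The 9 squamous markers together summed to 67.5 and 114 FPKM in the knockdown-labelled libraries, against 1677 and 1333 FPKM in the control libraries, and KRT5 made up most of the control sums. SOX2 of the same list went the other way, with 39.54 FPKM in knockdown-labelled and 0.31 FPKM in control input, and KRT6A, with 34.25 and 29.51 FPKM, was close between them. Fibroblast markers summed to at most 2.98 FPKM and endothelial markers to at most 0.72 FPKM in any library, and of the immune list CD68 alone was above 1 FPKM. What part these differences between the cell populations have in the results below was not tested.

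The coding sequences of the subunits are shown first, because their base composition goes with the polyribosome data below. The stretch runs over 40 codons around the nucleotide-binding motif that the subunits share, and capitals mark a G or C at the third base of a codon. The 2 subunits with the highest and the 2 with the lowest polyribosome over input ratio in knockdown-labelled cells are given, from GENCODE 29 transcripts on chromosomes 2, 1, 7 and 21.

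CCT7: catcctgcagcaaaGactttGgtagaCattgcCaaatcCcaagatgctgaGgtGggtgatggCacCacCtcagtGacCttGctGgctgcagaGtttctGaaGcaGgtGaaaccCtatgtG

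CCT3: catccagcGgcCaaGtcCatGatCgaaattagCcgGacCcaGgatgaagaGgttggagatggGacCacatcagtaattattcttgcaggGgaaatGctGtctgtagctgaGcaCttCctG

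CCT6A: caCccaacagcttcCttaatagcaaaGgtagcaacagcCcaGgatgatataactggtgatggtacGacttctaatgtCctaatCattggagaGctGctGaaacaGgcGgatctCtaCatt

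CCT8: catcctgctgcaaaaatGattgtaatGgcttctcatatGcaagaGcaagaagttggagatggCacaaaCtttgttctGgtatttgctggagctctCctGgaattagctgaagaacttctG

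Of these 40 codons, 21 end in G or C in CCT7, 20 in CCT3, 15 in CCT6A and 10 in CCT8. In the subunits not shown it was 19 in CCT5, 16 in CCT4, 7 in TCP1 and 6 in CCT2. TCP1 and CCT2 thus had fewer such codons than CCT6A and CCT8, but a higher polyribosome over input ratio in knockdown-labelled cells. The counts in this stretch therefore did not follow the order of the ratios. Over the whole coding sequence, the share of codons ending in G or C was 57.8% in CCT7 and 56.7% in CCT3. It was 50.5% in CCT5, 42.2% in CCT6A, 38.4% in CCT4, 33.99% in TCP1, 33.3% in CCT2 and 31.8% in CCT8. The GC content of the whole transcript set CCT7 (51.8%) and CCT3 (51.2%) apart from the other 6, which lay between 43.1% in CCT8 and 44.7% in CCT4.

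In control cells the CCT messages were loaded on polyribosomes almost in proportion to one another. Both knockdown-labelled libraries had another make-up than the control ones. In knockdown-labelled polyribosome RNA CCT3 and CCT7 made up 66.9% of the CCT messages, and in knockdown-labelled input CCT6A made up 29.5%.

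TCP1, the founding member of the family, was at 33.84 FPKM in knockdown-labelled polyribosome RNA and 161 FPKM in knockdown-labelled input, against 144 and 109 FPKM in the control polyribosome and input libraries. CCT2, whose product is also known as a receptor for the autophagy of protein aggregates, was at 31.52 and 117 FPKM in the knockdown-labelled polyribosome and input libraries, against 183 and 136 FPKM in the control ones. CCT8, the theta subunit, was at 12.24 and 113 FPKM in the knockdown-labelled polyribosome and input libraries, against 159 and 113 FPKM in the control ones. For each of these 3 genes the knockdown-labelled polyribosome library was the lowest of the 4 by a wide margin.

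CCT4 and CCT5 encode the subunits that can form rings on their own when made without the others. CCT4 was at 69.88 and 188 FPKM in the knockdown-labelled polyribosome and input libraries, against 258 and 185 FPKM in the control ones. CCT5, whose mutation causes a sensory neuropathy, was at 42.53 and 147 FPKM in the knockdown-labelled polyribosome and input libraries, against 193 and 130 FPKM in the control ones. Both were again lowest in knockdown-labelled polyribosome RNA, while their 2 inputs were close.

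CCT3, the gamma subunit, was at 277 and 359 FPKM in the knockdown-labelled polyribosome and input libraries, against 233 and 172 FPKM in the control ones. It was the one subunit with more FPKM in both knockdown-labelled libraries than in the control library of the same fraction. CCT7, the eta subunit, was at 302 and 323 FPKM in the knockdown-labelled polyribosome and input libraries, against 510 and 357 FPKM in the control ones. CCT6A, the zeta subunit, was at 95.56 and 589 FPKM in the knockdown-labelled polyribosome and input libraries, against 149 and 111 FPKM in the control ones. Its knockdown-labelled input value was the highest of all 32 values. CCT6B, a testis-enriched relative of CCT6A, stayed at or below 0.60 FPKM in every library.

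**Figure D1:**
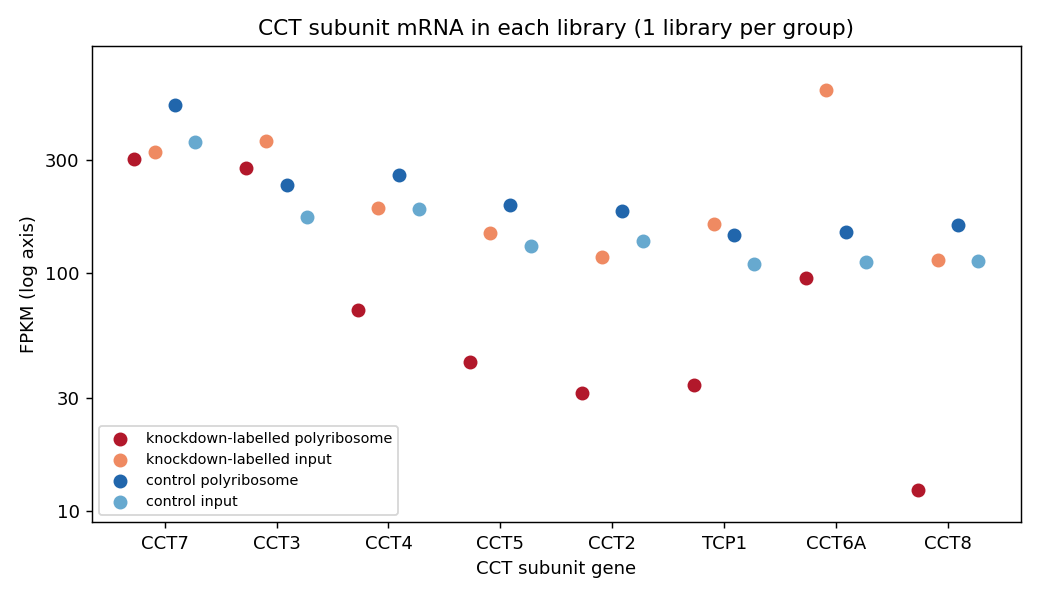
FPKM (log axis) of each CCT subunit in the 4 libraries, 1 point per library, with genes ordered by polyribosome over input in knockdown-labelled cells. The knockdown-labelled polyribosome points drop to 12.24 FPKM for CCT8 while CCT3 and CCT7 stay at 277 and 302 FPKM, and CCT6A stands at 589 FPKM in knockdown-labelled input.

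The first comparison set polyribosome RNA against input RNA within each kind of cell. In knockdown-labelled cells all 8 subunits were lower on polyribosomes than in input, and so were 3734 of the 7379 genes. Of the 8 subunits 6 were at least 2-fold lower, where 28.8% of the genes were. None was at least 2-fold higher, where 8.62% of the genes were. The log2 difference was -3.11 for CCT8, -2.61 for CCT6A, -2.22 for TCP1, -1.86 for CCT2, -1.77 for CCT5, -1.41 for CCT4, -0.37 for CCT3 and -0.10 for CCT7. The median of the subunits was -1.81, against -0.02 for all 7379 genes. In control cells all 8 subunits were higher on polyribosomes, by 0.40 for TCP1 to 0.57 for CCT5, and so were 4010 of the 7379 genes. The median of the subunits was 0.46 there, against 0.03 for all genes. None of the 8 reached 2-fold in control cells, where 0.759% of all genes were at least 2-fold lower and 0% were higher by as much.

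The subunits differed among themselves far more in one pair of libraries than in the other. The range from the lowest to the highest subunit was 3.01 in knockdown-labelled cells and 0.17 in control cells on the log2 scale. The SD over the 8 subunits was 1.04 in knockdown-labelled and 0.057 in control cells, and the SD over all genes was 1.22 and 0.332. As a percentage of input FPKM, CCT8 was at 10.8% and CCT7 at 93.5% on knockdown-labelled polyribosomes. On control polyribosomes the subunits lay between 133% for TCP1 and 149% for CCT5. Summed over the subunits, polyribosome FPKM came to 43.3% of input in knockdown-labelled cells and 139% in control cells.

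**Figure D2:**
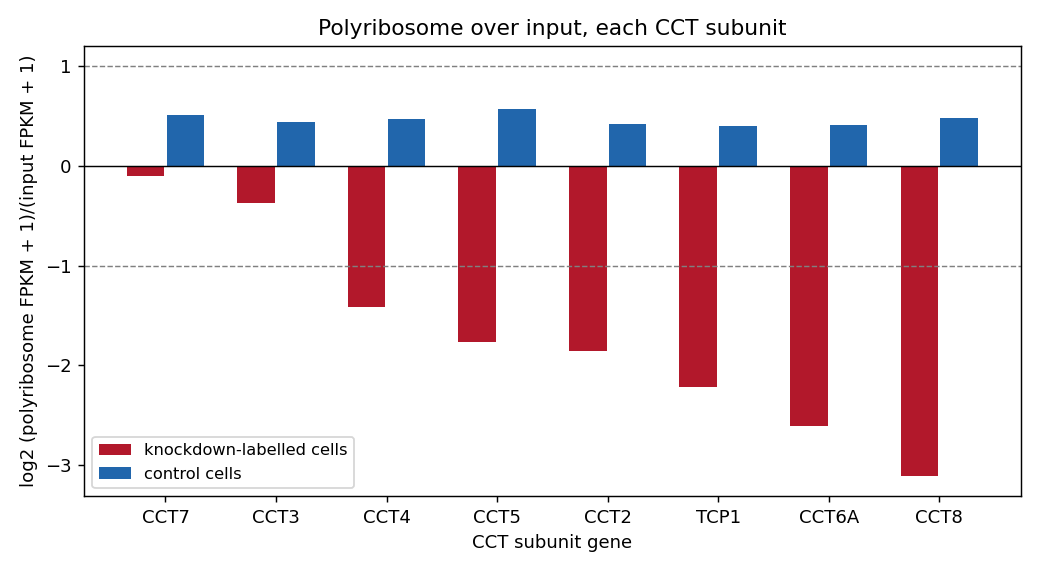
Log2 of (polyribosome FPKM + 1) over (input FPKM + 1) for each CCT subunit in knockdown-labelled and control cells, with dashed lines at a 2-fold difference. The control bars lie between 0.40 and 0.57, and the knockdown-labelled bars between -3.11 and -0.10.

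With the knockdown-labelled fractions exchanged, each of the knockdown-labelled values has the opposite sign by construction and the median was 1.81. After a trend on transcript GC content and length was removed across genes, the median in knockdown-labelled cells was -0.83, against -0.36 for all genes. Then 3 of 8 subunits were at least 2-fold lower, where 14.1% of all genes were. These were CCT8 at -2.02, CCT6A at -1.59 and TCP1 at -1.17. Genes without a matched transcript had no such value and counted in the share as not lower. CCT7 was then at -0.17 and CCT3 at -0.33. The control median after the same removal was 0.41, against 0.03 for all genes.

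The stoichiometry was described by each subunit's share of the summed FPKM of the complex, which does not depend on how a library was scaled. Both control libraries had nearly the same make-up. CCT7 held 27.9% of control polyribosome and 27.2% of control input CCT messages. CCT4 held 14.1% in both libraries, and CCT3 held 12.8% and 13.1% of the control polyribosome and input messages. TCP1, the least abundant there, held 7.89% of control polyribosome and 8.29% of control input messages. The largest gap between the 2 control fractions was 0.70 percentage points, for CCT7, and 1.45 percentage points in all would have to be moved to turn one profile into the other.

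The knockdown-labelled fractions differed from each other in make-up, with 32.8 percentage points to be moved. In knockdown-labelled polyribosome RNA CCT7 held 34.9%, CCT3 32.0%, CCT6A 11.1%, CCT4 8.09%, CCT5 4.92%, TCP1 3.92%, CCT2 3.65% and CCT8 1.42%. In knockdown-labelled input CCT6A held 29.5%, CCT3 17.97%, CCT7 16.2%, CCT4 9.39%, TCP1 8.08%, CCT5 7.36%, CCT2 5.87% and CCT8 5.68%. CCT3 and CCT7 together made up 66.9% of the knockdown-labelled polyribosome messages and 34.1% of the knockdown-labelled input messages. In control cells the same pair made up 40.7% on polyribosomes and 40.3% in input. With the fractions exchanged, the 2 knockdown-labelled profiles change places and the distance between them is the same. Between the polyribosome libraries of knockdown-labelled and control cells 29.2 percentage points would have to be moved, and between the inputs 25.9.

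**Figure D3:**
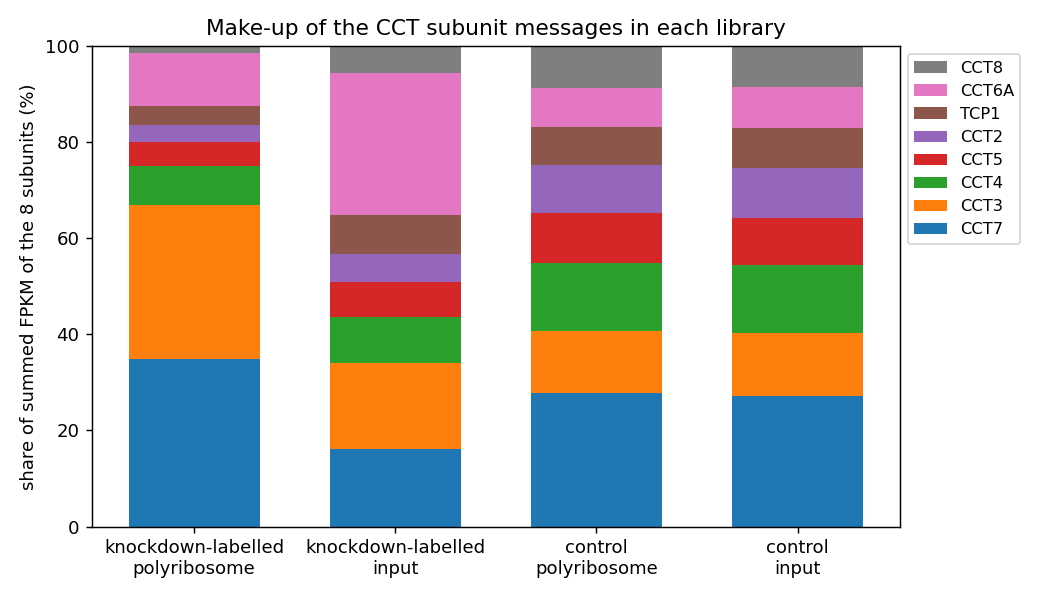
Share of the summed FPKM of the 8 CCT subunits (%) held by each subunit in each library. The 2 control bars are nearly alike, CCT7 and CCT3 fill 66.9% of the knockdown-labelled polyribosome bar, and CCT6A fills 29.5% of the knockdown-labelled input bar.

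The subunits spread most widely in knockdown-labelled polyribosome RNA. There the highest subunit, CCT7, was 24.6 times the lowest, CCT8. The ratio was 5.20 in knockdown-labelled input, between CCT6A and CCT8. It was 3.54 in control polyribosome RNA and 3.28 in control input, both between CCT7 and TCP1. The SD of log2(FPKM + 1) over the subunits was 1.56 in knockdown-labelled polyribosome RNA, 0.852 in knockdown-labelled input, 0.597 in control polyribosome RNA and 0.573 in control input. Without CCT7 the SD was 0.321 and 0.307 in the control polyribosome and input libraries, so in control cells 1 gene carried much of the spread. After removal of the trend on GC content and length the SD was 1.12 and 0.845 in the knockdown-labelled polyribosome and input libraries, against 0.454 and 0.434 in the control ones.

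The order of the subunits also differed between libraries. TCP1 was the lowest subunit in both control libraries and ranked 6th on knockdown-labelled polyribosomes and 5th in knockdown-labelled input. CCT8 ranked 6th in both control libraries and 8th in both knockdown-labelled ones. Across the 8 subunits, which are not independent replicates and share a library's normalization, the log2(FPKM + 1) values had a Pearson's r of 0.784 for the 2 knockdown-labelled fractions and 0.996 for the 2 control fractions. It was 0.703 between the 2 polyribosome libraries and 0.290 between the 2 inputs. With no replicate, neighbours in these orders cannot be said to differ, in particular TCP1, CCT6A and CCT8 in control input, at 109, 111 and 113 FPKM.

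Other complexes that hold their subunits in fixed number were measured in the same way. Prefoldin, a hexamer that hands unfolded actin and tubulin to CCT, had an SD of 2.01 and 0.988 in the knockdown-labelled polyribosome and input libraries, against 1.39 and 1.39 in the control ones. The 6 ATPases of the proteasome's 19S cap had an SD of 2.23 and 0.878 in the knockdown-labelled polyribosome and input libraries, against 1.43 and 1.42 in the control ones. The 7 alpha subunits of the 20S core had an SD of 1.29 and 0.966 in the knockdown-labelled polyribosome and input libraries, against 0.992 and 1.07 in the control ones. All 4 complexes had their largest SD in the library labelled as knockdown polyribosome, and in both control libraries CCT had the smallest of the 4.

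The second comparison set knockdown-labelled against control input RNA. Most CCT subunits were close between the inputs, and the median of 0.10 compared with 0.01 for all genes. CCT6A, at 2.39, and CCT3, at 1.06, were at least 2-fold higher, 2 of 8 where 13.2% of all genes were. None was at least 2-fold lower, where 14.4% of all genes were. TCP1 was at 0.56, CCT5 at 0.18, CCT4 at 0.02, CCT8 at 0.01, CCT7 at -0.15 and CCT2 at -0.21. CCT6A had 5.29 times the FPKM of control input, the 97.2nd percentile of all genes. With the fractions exchanged, the library then taken as knockdown-labelled input gave a median of -1.49, against -0.23 for all genes. Then 5 of 8 were at least 2-fold lower, where 31.8% of all genes were, with CCT8 lowest at -3.11. CCT6A was then at -0.22 and CCT3, the highest, at 0.68. With GC content and length removed CCT6A was at 2.24, CCT3 at 0.99 and the median at -0.04, against 0.02 for all genes.

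The genes next to CCT6A on chromosome 7 were looked up after its value was seen, by their order in a RefSeq table and with 5 measured genes on each side. Only this order was used, not distance, so a counted neighbour may lie far from its subunit. In input RNA 6 of these 10 neighbours were at least 2-fold higher in knockdown-labelled cells and none was at least 2-fold lower, where 13.2% of all genes were higher and 14.4% lower. MRPS17, a mitochondrial ribosomal protein gene, was at 2.62, LANCL2 at 2.14, VOPP1 at 1.83, GBAS at 1.74, SUMF2 at 1.61 and CHCHD2, a mitochondrial protein gene, at 1.27. PSPH, the gene directly before CCT6A, was at -0.15. In polyribosome RNA 5 of the 10 passed 2-fold upward and GBAS, at -1.60, downward, as 16.7% and 32.9% of all genes did. Around each of the other 7 subunits, 2 or fewer of 10 neighbours were at least 2-fold higher in knockdown-labelled input. With the fractions exchanged, 5 of the 10 neighbours of CCT6A passed 2-fold upward in input and 2 downward, as 15.9% and 31.8% of all genes did. Upward it was then 4 of 10 around CCT3 and 3 of 10 around TCP1, so the upward contrast between the subunits was smaller. Downward it was 8 of 10 around CCT4 and CCT8, 7 around CCT2, 4 around CCT5, 3 around TCP1 and CCT7 and 1 around CCT3.

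**Figure D4:**
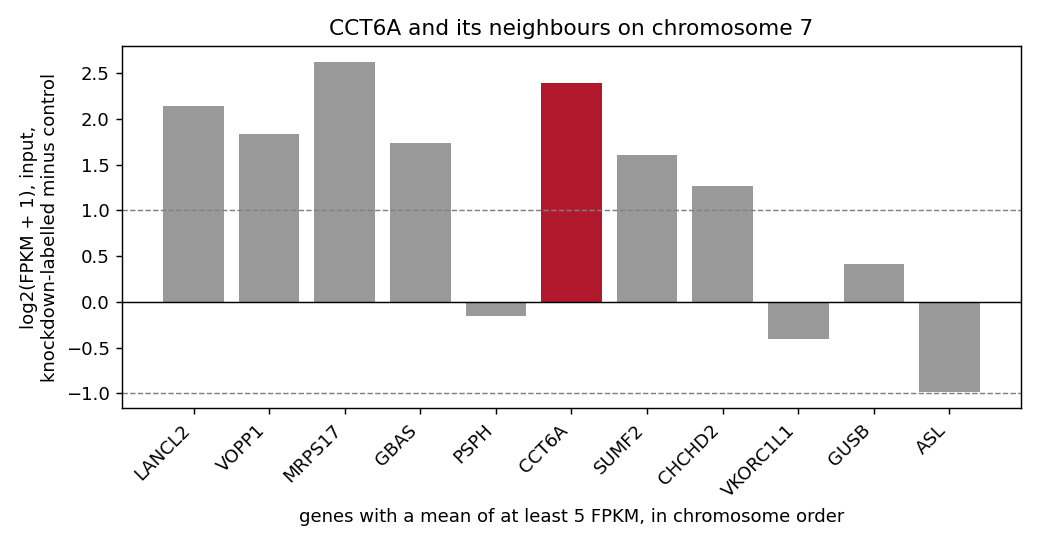
Log2(FPKM + 1) difference of input RNA, knockdown-labelled minus control, for CCT6A and the 5 measured genes on each side of it in chromosome order, with dashed lines at a 2-fold difference. CCT6A stands at 2.39, 6 of its 10 neighbours are at least 2-fold higher, and PSPH beside it is at -0.15.

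The third comparison set knockdown-labelled against control polyribosome RNA. Here 5 of the 8 subunits were at least 2-fold lower, where 32.9% of all genes were, and none was at least 2-fold higher, where 16.7% were. CCT8 was at -3.59, or 7.71% of its control FPKM. CCT2 was at -2.50, CCT5 at -2.16, TCP1 at -2.06 and CCT4 at -1.87. These 4 genes were at 17.2% to 27.1% of control. CCT7 at -0.76, CCT6A at -0.63 and CCT3 at 0.24 did not reach 2-fold. The median was -1.96, against -0.28 for all genes. With the fractions exchanged the median was -0.42, none was at least 2-fold lower, and CCT6A was at least 2-fold higher at 1.98. Of all genes 14.0% were then lower and 12.7% higher. After the removal of GC content and length, -1.11 was the median, against -0.38 for all genes. The same 5 subunits were then at least 2-fold lower, where 25.7% of all genes were.

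The fourth comparison, which the series was designed for, compared the translation efficiency of knockdown-labelled and control cells, that is the difference between the 2 polyribosome minus input values above. It shares its libraries with the other comparisons and adds no independent measurement. All 8 subunits had a lower value in knockdown-labelled cells, as had 4015 of the 7379 genes. Of the 8 subunits 6 were at least 2-fold lower, where 30.1% of all genes were and 12.0% were at least 2-fold higher. CCT8 was at -3.60, CCT6A at -3.02, TCP1 at -2.62, CCT5 at -2.33, CCT2 at -2.29, CCT4 at -1.89, CCT3 at -0.81 and CCT7 at -0.61. The median was -2.31, against -0.12 for all genes. With FPKM rescaled to a sum of 1000000 in each library CCT3 also passed 2-fold, at -1.07. With the fractions exchanged the median was 1.32, and 5 of 8 were at least 2-fold higher, where 27.8% of all genes were. With GC content and length removed it was -1.32, with 5 of 8 at least 2-fold lower, where 17.3% of all genes were, and CCT4 was at -0.94. In the authors' deposited table, where 5 FPKM was added to both values, the ratio of polyribosome to input ran between 0.146 for CCT8 and 0.936 for CCT7 in knockdown-labelled cells. The authors' deposited table gave 1.31 for TCP1 to 1.47 for CCT5 in control cells.

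Base composition went with these values in knockdown-labelled cells. Across the 8 subunits, Spearman's rho between the GC content of the transcript and the polyribosome over input difference was 0.929 in knockdown-labelled cells and 0.405 in control cells. Across 7162 genes with a transcript it was 0.823 in knockdown-labelled and 0.0165 in control cells. For the share of codons ending in G or C the rho over the subunits was 0.786 in knockdown-labelled and 0.357 in control cells, and over all genes 0.754 and -0.011. These are descriptions across genes of the same libraries, which share depth and library preparation, and with the fractions exchanged the knockdown-labelled coefficients have the opposite sign. Within the 6 subunits of 43.1% to 44.7% GC, the knockdown-labelled values ran between -3.11 for CCT8, which had the lowest GC content, and -1.41 for CCT4, which had the highest of the 6. In between lay TCP1 (43.78%) at -2.22, CCT2 (44.10%) at -1.86, CCT6A (44.13%) at -2.61 and CCT5 (44.57%) at -1.77. CCT6A was thus out of the order of GC content. After the removal of GC content and length CCT8 was still at -2.02 and CCT4 at -0.49. Transcript length had a rho of -0.167 over the subunits in knockdown-labelled cells.

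**Figure D5:**
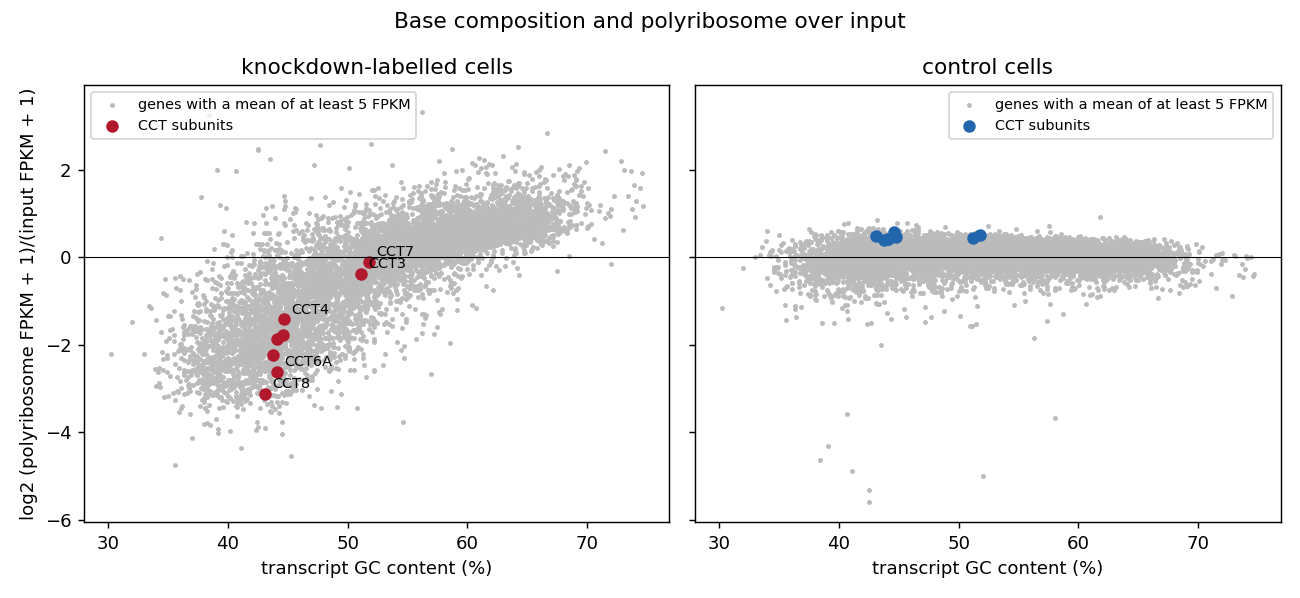
Transcript GC content (%) against log2 of polyribosome over input for all genes past the filter (grey) and the 8 CCT subunits (colour), knockdown-labelled cells left and control cells right. In knockdown-labelled cells the cloud climbs with GC content, with CCT3 and CCT7 near 0 and the other 6 subunits between -3.11 and -1.41, while in control cells the subunits lie between 0.40 and 0.57.

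NSUN6 is known to methylate cytosine within the motif CUCCA of messenger RNA, mostly in 3′ untranslated regions, so the letters CTCCA were searched on the sense strand of 1 GENCODE 29 transcript per gene. TCP1 alone among the 8 subunits held them in its 3′ untranslated region, at 2 places. They are shown with 10 bases on each side and the motif in capitals, from chromosome 6.

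TCP1, first site: tgcccattctCTCCAgtgtgtgtaa

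TCP1, second site: cagccagatgCTCCAagagggtggc

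These sites start at bases 297 and 341 of a region of 547 bases. Of 7071 genes with a 3′ untranslated region, 62.3% held the motif, and 50.7% did among those with a region no longer than that of CCT5, the longest of the subunits at 1629 bases. In the coding sequence 7 of 8 subunits held the letters, all but CCT2, against 80.7% of genes. In the efficiency difference TCP1 stood between CCT6A and CCT5. No methylation was measured in these libraries.

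The partners of CCT were described from fixed lists, to be read against the 30.1% of all genes that were at least 2-fold lower in efficiency and the 12.0% that were higher. Prefoldin had 0 of 6 subunits at least 2-fold higher and 2 of 6 at least 2-fold lower in efficiency, a share near that of all genes, with a median of -0.80. Its VBP1 subunit was at -3.08 and PFDN5 at -0.00386. The phosducin-like proteins, which modulate CCT, had 3 of 4 members in the table and all 3 were at least 2-fold lower, with TXNDC9 at -3.28 and PDCL at -1.45. Of the tubulin folding cofactors, which take tubulin over from CCT, 1 of 6 was at least 2-fold lower, TBCE at -2.21, and the median was 0.09. Actin and tubulin, the main clients, had 0 of 11 members past the filter at least 2-fold higher or lower, with a median of -0.09, ACTB at -0.61 and TUBB3 at 0.27. Of 10 other clients, 2 were at least 2-fold higher and 0 lower, with MLST8 of the mTOR complexes at 1.97 and the mitotic activator CDC20 at -0.31. Of the other chaperonins, 1 of 3 past the filter was at least 2-fold lower, HSPD1, which forms the mitochondrial ring, at -3.88. HSPE1, its lid, was at -0.88 and MKKS at -0.80. Transcript GC content was 38.2% in VBP1, 39.2% in PDCL, 39.5% in TXNDC9, 44.2% in HSPD1 and 45.5% in TBCE. It was 50.2% in HSPE1, 50.7% in PFDN5, 56.0% in ACTB, 57.0% in CDC20, 62.6% in TUBB3 and 63.7% in MLST8. Across 7162 genes, Spearman's rho between GC content and the efficiency difference was 0.783. What part base composition has in the differences between these lists was not tested. Under the exchange, prefoldin had 2 of 6 subunits at least 2-fold higher and 0 lower, and the phosducin-like proteins 2 of 3 higher. Of all genes 27.8% were then higher and 6.29% lower. VBP1 was then at 2.47, TXNDC9 at 2.79, TBCE at 1.56, HSPD1 at 3.24 and MLST8 at -1.08, while actin and tubulin again had 0 of 11 past 2-fold. The 10 other clients then had 0 at least 2-fold higher and 2 lower.

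In polyribosome RNA, the shares of all genes past 2-fold were 32.9% lower and 16.7% higher. Prefoldin had 3 of 6 subunits at least 2-fold lower and 0 higher, with VBP1 at -2.41. The clients other than actin and tubulin had 5 of 10 at least 2-fold higher and 1 lower, with CCNE1 at 2.70 and GNB1 at -1.25. Actin and tubulin had 1 of 11 at least 2-fold higher, TUBA1A at 1.70, and 2 lower, with ACTB at -1.23. In input RNA 2 of the 3 other chaperonins past the filter were at least 2-fold higher, where 13.2% of all genes were. They were HSPE1 at 2.16 and HSPD1 at 1.94, and MKKS was at -0.53. Prefoldin had 1 of 6 lower in input, PFDN2 at -1.34, where 14.4% of all genes were lower, and a median of -0.01. Under the exchange, prefoldin had 1 of 6 lower in polyribosome RNA and 3 of 6 lower in input, where 14.0% and 31.8% of all genes were. The clients other than actin and tubulin then had 1 of 10 higher in polyribosome RNA, where 12.7% of all genes were. Actin and tubulin then had 1 of 11 higher and 2 lower in that RNA. HSPE1 was then at 1.74, HSPD1 at -1.62 and MKKS at -1.38 in input.

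The genes most like the mean profile of the 8 subunits over the 4 libraries were found by the Euclidean distance of log2(FPKM + 1) values centred on each gene's mean, among 5617 genes outside the complex with a mean of at least 10 FPKM. LDHA, a lactate dehydrogenase, was nearest at a distance of 0.041. It was at 268 and 828 FPKM in the knockdown-labelled polyribosome and input libraries, against 833 and 607 FPKM in the control ones. SNRPA1, a spliceosome protein, followed at 0.085, NFU1, an iron-sulfur cluster protein, at 0.102 and PPP6C, a phosphatase subunit, at 0.106. These distances do not depend on which library carries which label. The median distance of all these genes was 1.64, and the subunits themselves lay at 0.386 for CCT4 to 1.61 for CCT6A from their own mean.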

How the data were processed

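Poly(A) RNA of 4 libraries, 1 per group, was sequenced from cells labelled as KYSE-150. The authors deposited FPKM per gene symbol for each library and a polyribosome over input ratio for each kind of cell, and the values show that 5 FPKM was added to both before division (largest gap to the deposited ratio 5e-10). TopHat and the builds hg19 and GRCh37 are named in the submitters' processing notes, with no version. The counting tool is not given in the sources used here, nor are its strand setting and annotation. The library kit keeps strand, per the labels' protocols. In 28 of 17064 rows no gene name stands. These rows entered the counts over all genes.

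Members, lists and comparisons were chosen with earlier results of these data known. Comparisons are differences of log2(FPKM + 1), a scale on which low genes differ by less than their ratio. A gene was kept where its average over the libraries reached 5 FPKM, which left 7379. Since the lowest value above 0 is 0.01 FPKM, the rounding of the table, reads could not be recovered. FPKM summed to 627887 and 538002 in the knockdown-labelled polyribosome and input libraries, against 564769 and 579251 in the control ones. Named genes were the 8 members, NSUN6, some of the highest and lowest measured members of the fixed lists and the 5 nearest profiles, of which 1 is not reported here. The neighbours of CCT6A, HSPE1 and HSPD1 beside each other, CCT6B, and KRT6A, KRT8, KRT18 and CD68 among the markers, were named after their values were seen.

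GC content, coding sequence and 3′ untranslated region came from the GENCODE 29 transcript with the longest coding sequence, matched for 97.1% of genes past the filter. A second-degree trend in GC content and log2 of length was taken out with the mean kept, and the calculation was tested on simulated data. Shares of all genes after this removal are over 7379 genes, though only 7162 had a transcript and thus a value. The others counted as not past 2-fold, which makes these shares slightly low. GENCODE 29 and RefSeq lie on another build than the one the notes name, so no coordinates are given. By name, GENCODE 29 lists 4 pseudogenes for CCT6, 2 each for TCP1, CCT4, CCT5 and CCT7 and 1 for CCT8, and reads shared with such copies make these levels uncertain. Python 3.11.15, numpy 2.4.6, pandas 2.3.3 and scipy 1.17.1 were used.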

Additional observations from a re-analysis of the deposited data

Results flagged for a closer look

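The polyribosome over input difference had opposite signs in the 2 kinds of cell for every one of the 8 subunits, below 0 in knockdown-labelled cells and above 0 in control cells. With 1 pair of libraries on each side this difference was not tested. Of all 7379 genes, 3734 were below 0 in knockdown-labelled cells and 4010 were above 0 in control cells. Genes that did both were not counted. The median of the subunits differed by -2.31 between knockdown-labelled and control cells. For CCT8 the difference was -3.60, for CCT6A -3.02, for TCP1 -2.62 and for CCT5 -2.33. CCT2 differed by -2.29 and CCT4 by -1.89. CCT3 and CCT7, the 2 subunits of highest GC content, differed by -0.81 and -0.61. Such opposite signs were not particular to CCT. All 7 alpha subunits of the 20S core were below 0 in knockdown-labelled cells and above 0 in control cells. Their medians were -1.34 and 0.43. All 6 ATPases of the 19S cap did the same, with medians of -0.98 and 0.41. In the efficiency difference 6 of 7 and 3 of 6 of these genes were at least 2-fold lower, where 30.1% of all genes were. The opposite signs depend on the header's column order. With the knockdown-labelled fractions exchanged all 8 CCT subunits were above 0 in both kinds of cell. In the efficiency difference 3 of 7 of the 20S and 3 of 6 of the 19S genes were then at least 2-fold higher. Of all genes 27.8% were.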

How the results depend on the processing

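The medians of the subunits kept their direction and their side of the 2-fold line in all 5 comparisons with a pseudocount of 0.1 or 5 FPKM, with FPKM rescaled to 1000000 per library, with centring on the median of all genes and with rescaling without the 10 highest genes. Rescaling to 1000000 moved the median of all genes to -0.23 for polyribosome minus input in knockdown-labelled cells and to -0.43 for polyribosome RNA between cells.

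With the knockdown-labelled fractions exchanged, the medians were 1.81 for polyribosome minus input in knockdown-labelled cells, -1.49 for input RNA, -0.42 for polyribosome RNA and 1.32 for translation efficiency. In that order of columns polyribosome minus input was 2.22 for TCP1, 1.86 for CCT2, 1.41 for CCT4, 1.77 for CCT5, 2.61 for CCT6A and 3.11 for CCT8. The efficiency difference was 1.82 for TCP1, 1.44 for CCT2, 0.94 for CCT4, 1.20 for CCT5, 2.20 for CCT6A and 2.62 for CCT8. Input RNA was then at -0.22 for CCT6A and polyribosome RNA at 0.16 for TCP1. Once GC content and length were removed, -0.83 was the median for polyribosome minus input in knockdown-labelled cells and -0.044 that for input RNA. The medians of all genes were then -0.36 and 0.02.

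The interquartile range over the subunits was 0.61 in control polyribosome RNA and 0.63 in control input, so these 2 changed places in the order of spread. Without CCT7 the SD was 0.32 and 0.31 in the same libraries. The causes were not tested beyond these settings. With no filter, 32.7% of all genes were at least 2-fold apart in polyribosome RNA, against 49.5% with the filter, and 25.8% in efficiency, against 42.1%. With a filter at 1 FPKM the share for polyribosome minus input in control cells was 1.23%, against 0.759%. The exchange for the partner lists was added after the data were seen. No paired analysis was possible because each group has 1 library and the labels give no replicate numbers. With 1 library per group no library could be left out, and with unknown depth no counting error could be given.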
